A study of Mus musculus with 10 samples.

Results

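Plakoglobin (Jup), the gene that the mouse line lacks on one allele, was described together with the desmosome genes Dsp, Pkp2, Pkp4, Dsg2, Dsc2 and Perp, and with Tmem43, a cardiomyopathy gene of the nuclear envelope. Every probe set whose only gene symbol in the array annotation was one of these 8 was taken, which gave 21 of 22690 probe sets and 8 of 12394 named genes. The values are signals of right ventricular total RNA on Affymetrix arrays, 1 array per mouse, from 10 mice of strain 129SV. There were 4 trained plakoglobin (+/-) mice, 4 trained wildtype mice, 1 untrained plakoglobin (+/-) mouse and 1 untrained wildtype mouse. Trained mice were 6 months old, with 2 males and 2 females of each genotype. They swam 6 times per week in water of 35 °C, for a time lengthened from 5 to 90 minutes. The untrained mice, 1 of each genotype, were 10-month-old females; age and training therefore cannot be told apart, and an untrained group has no replicate. Littermate pairs were used, but the sources name neither the pairs nor the way the plakoglobin allele was disrupted, nor where the Jup probes lie relative to it.

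Desmosomes are junctions that hold neighbouring heart muscle cells together at the intercalated disc. The cadherins desmoglein-2 (Dsg2) and desmocollin-2 (Dsc2) span the membranes and bind across the gap between cells. Inside the cell the armadillo proteins plakoglobin and plakophilin-2 (Pkp2) hold the cadherin tails, and desmoplakin (Dsp) ties this plaque to the desmin filaments. Plakoglobin also sits in adherens junctions beside its relative beta-catenin. Human mutations in the genes of plakoglobin, plakophilin-2, desmoplakin, desmoglein-2 and desmocollin-2, and in TMEM43, cause arrhythmogenic right ventricular cardiomyopathy. The series asked how training acts on the hearts of mice with reduced plakoglobin.

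The cardiomyocyte markers fitted the labelled tissue: 9 of 9 lay above the array's median signal in every mouse. Their summed signal was 1297000 to 1610700 in trained plakoglobin (+/-) mice and 1340100 to 1644500 in trained wildtype mice. Of the other cells that build desmosomes, 0 of 4 keratinocyte markers and 1 of 9 mesothelium and epithelium markers lay above the median in every mouse. In whole tissue, fewer cells of a type and less RNA per cell cannot be told apart. Control probe sets at both ends of the GAPDH transcript reflect how complete the labelled RNA is, and their 3' over 5' ratio lay between 2.50 and 17.8 on 3 arrays. These were trained plakoglobin (+/-) replicate 1 and trained wildtype replicates 1 and 2, and on the other 7 arrays the ratio lay between 0.849 and 1.02. The same ratio of actin was 2.65 and 3.05 on both replicates 1, but 1.29 on trained wildtype replicate 2, near the 0.932 to 1.24 of the other 7 arrays. Results that moved most without these 3 arrays are given with and without them.

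By limma with Benjamini-Hochberg adjustment, 0 of the 18 tested probe sets of these genes passed a threshold of 0.05 for genotype, training, sex or the genotype by training term. Over all 13576 probe sets tested, 0% passed for genotype, 0.626% for training (0.273% higher and 0.354% lower), 0.0516% for sex (0.00737% higher and 0.0442% lower in females) and 0% for the genotype by training term. Each animal gave a single array, so p-values rest on the spread between these mice. In limma that spread is moderated across probe sets. With 1 mouse in each untrained group, the genotype by training term assumes that untrained mice vary like trained ones. The remaining 3 of the 21 probe sets, 1 of Pkp2 and 2 of Dsg2, were too dim for the filter. Each gene is represented by its brightest probe set, and differences are log2 values with their standard error (SE). Both untrained mice were female. With the sex term, each training difference of the main fit therefore contrasts the 4 trained with the 2 untrained females. Trained males do not enter the difference itself, but they do enter its SE and p. In array naming an s in the probe set's name marks probes that can match more than one transcript. This applies to the probe sets that represent Jup, Dsp and Pkp2.

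**Figure D1:**
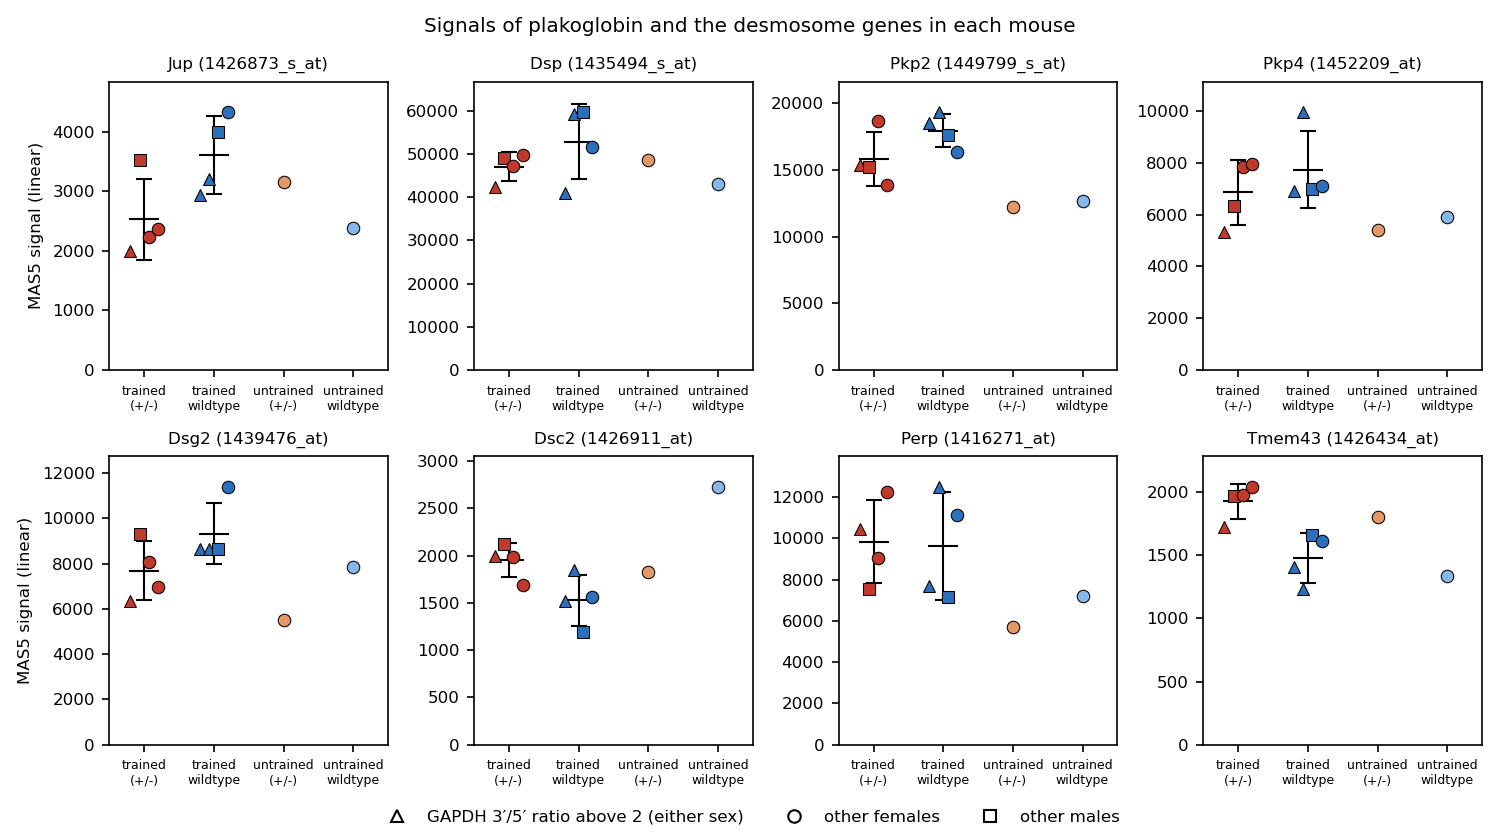
Linear MAS5 signal of the representing probe set of each gene in each of the 10 mice, by group; triangles mark the 3 arrays of high GAPDH ratio, circles other females and squares other males, and bars are the mean ± SD of a trained group (n = 4). Trained plakoglobin (+/-) and trained wildtype points overlap in every panel but that of Tmem43, where trained plakoglobin (+/-) points lie between 1725.7 and 2038.2 and the wildtype points between 1234.7 and 1659.2.

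The plaque genes are described first. Jup read 1991.7, 3519.9, 2229.7 and 2362.8 in trained plakoglobin (+/-) mice, against 2928.3, 3206.9, 3995.5 and 4322.0 in trained wildtype mice. Of the trained plakoglobin (+/-) mice, 3 lay below all trained wildtype mice, while replicate 2 lay above 2 of them. The log2 difference was -0.53 (SE 0.24), with a 95% interval from -1.06 to 0.00 and an adjusted p of 1. The two-sided exact permutation test over the 8 trained mice gave p = 0.0857, where 0.0286 is the smallest p the design allows. Permuted within sex, the exact p was 0.111, where 0.0556 is the smallest possible. Leaving out each trained mouse in turn moved the difference of means between -0.70 and -0.43. The exact permutation p was 0.0857 to 0.143 when any other single trained mouse was left out. Without trained plakoglobin (+/-) replicate 2 it was 0.0286, the smallest possible with 35 labelings. That mouse was the only one of its group to overlap the trained wildtype mice, so this p followed from the choice of mouse. With the 3 arrays of high GAPDH ratio left out, the fitted difference was -0.60 (SE 0.23, adjusted p = 0.71). The exact permutation p was then 0.2, where 0.1 is the smallest possible.

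The untrained pair had the opposite order, with 3156.9 in the plakoglobin (+/-) mouse and 2386.8 in the wildtype mouse. Over the 4 groups the Jup means ran from 2386.8 in the untrained wildtype mouse through 2526 ± 680 in trained plakoglobin (+/-) mice and 3156.9 in the untrained plakoglobin (+/-) mouse to 3613 ± 654 in trained wildtype mice (SD, n = 4 in each trained group). Both untrained values lay within the range of the trained plakoglobin (+/-) mice. The genotype by training term for Jup was -0.94 (SE 0.53), with a 95% interval from -2.13 to 0.25 (adjusted p = 1). It rests on 1 untrained mouse of each genotype. Training itself gave 0.09 (SE 0.32) for Jup, and this value was 0.56 when the untrained plakoglobin (+/-) mouse was left out and -0.38 when the untrained wildtype mouse was left out.

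Dsp, the link to the filaments, was read by 3 probe sets that behaved differently. The representing one, 1435494_s_at, read 42435.1, 48918.6, 47112.6 and 49763.0 in trained plakoglobin (+/-) mice, against 40980.1, 59191.8, 59566.8 and 51549.3 in trained wildtype mice. The groups overlapped, and the difference was -0.15 (SE 0.15, adjusted p = 1). Untrained mice read 48678.1 (plakoglobin (+/-)) and 43085.6 (wildtype), both within the range of the trained mice, and the training difference was 0.18 (SE 0.19, adjusted p = 0.89). A second probe set, 1435493_at, read 16856.8 to 23246.8 in trained plakoglobin (+/-) mice and 16196.3 to 23151.6 in trained wildtype mice, and had a genotype difference of -0.04 (SE 0.17). The 3 arrays of high GAPDH ratio read 21423.2 to 23246.8 there, against 16196.3 to 22045.1 on the other 7.

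The third Dsp probe set, 1427610_at, had 2 separate levels. It read 558.1, 16238.2, 13675.0 and 15818.9 in trained plakoglobin (+/-) mice, against 454.6, 194.0, 13832.6 and 16921.1 in trained wildtype mice. The untrained plakoglobin (+/-) mouse read 16403.5 and the untrained wildtype mouse 15039.3. The 3 low values, 194.0 to 558.1, belonged to the 3 arrays of high GAPDH ratio, and the other 7 arrays lay between 13675.0 and 16921.1. The lowest of the 7 was 24.5 times the highest of the 3, the widest such gap among the 22626 probe sets that are not controls. Over all of these, 4.81% had all 3 arrays below the other 7, and 2.76% had them above. Within an array, the ratio of 1427610_at to 1435494_s_at was 0.00328 to 0.0132 on these 3 arrays and 0.232 to 0.349 on the other 7. The lowest signal and the lowest ratio both came from trained wildtype replicate 2, the array with the GAPDH ratio of 17.8 and the actin ratio of 1.29.

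**Figure D2:**
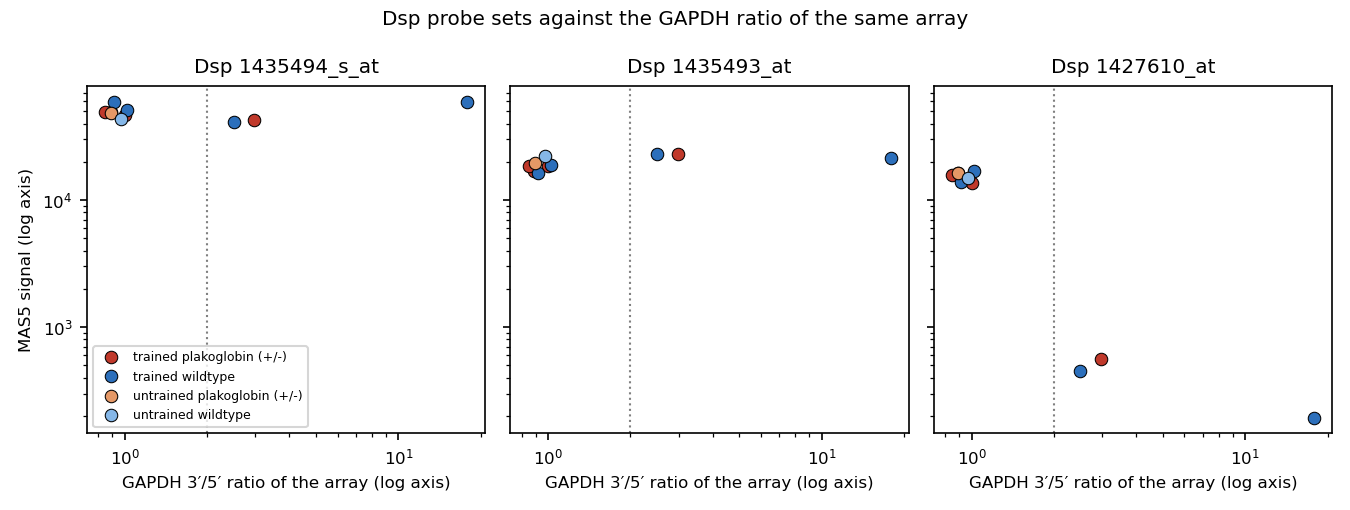
Signal of each of the 3 Dsp probe sets in the 10 mice (log axis) against the GAPDH 3' to 5' ratio of the same array (log axis), coloured by group; the dotted line marks a ratio of 2. At 1427610_at the 3 arrays right of the line read 194.0 to 558.1 and the 7 left of it 13675.0 to 16921.1, while at 1435494_s_at both sets overlap and at 1435493_at the 3 arrays (21423.2 to 23246.8) lie in the upper part of the range of all 10.

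With 2 of the 3 low arrays from trained wildtype mice, 1427610_at had a genotype difference of 1.64 (SE 1.59). Its training difference, a contrast of females, was -1.61 (SE 1.85). Of the 3 low arrays only trained wildtype replicate 2 came from a female. Without the 3 arrays these became -0.02 (SE 0.17) and -0.03 (SE 0.17). The sources do not give the place of the 3 Dsp probe sets along the transcript, and the part of RNA integrity in the gap was not tested. Among the other 20 probe sets described here, 1426153_a_at of Dsg2 also had the 3 arrays lowest, at 74.5 to 84.5 against 129.5 to 805.6 on the other 7. The 3 values are below the signal of 104 that served as the floor. Jup overlapped between the 3 arrays (1991.7 to 3206.9) and the other 7 (2229.7 to 4322.0).

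By training the plakophilin probe sets were mixed in direction, while by genotype all 5 tested ones were lower, with 0 calls. Pkp2, the main plakophilin of heart muscle, was represented by 1449799_s_at, with 15394.4, 15211.1, 18647.5 and 13889.2 in trained plakoglobin (+/-) mice and 18515.6, 19299.9, 17570.5 and 16370.5 in trained wildtype mice. The untrained plakoglobin (+/-) mouse read 12237.0 and the untrained wildtype mouse 12683.5, below each of the 8 trained mice. Over all tested probe sets 9.24% did not overlap between trained and untrained mice, 4.63% being higher and 4.61% lower in trained mice. The training difference was 0.44 (SE 0.18, adjusted p = 0.491). The further Pkp2 probe sets 1429183_at and 1460511_at overlapped between trained and untrained mice and gave 0.07 (SE 0.22) and -0.22 (SE 0.26). By genotype 1449799_s_at gave -0.19, 1429183_at -0.17 and 1460511_at -0.11. With the 3 arrays of high GAPDH ratio left out these were -0.10, -0.0043 and -0.25.

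The dim Pkp2 probe set 1420259_at is tied by the annotation to the same sequence record as the representing one. Its signal was lower in both untrained mice than in any trained mouse. In the limma fit with no filter its adjusted p for training was 0.506. This probe set did not pass the filter, and the share of dim probe sets with such an order was not counted. It read 971.6, 211.5, 389.0 and 466.6 in trained plakoglobin (+/-) mice and 1178.6, 282.5, 334.0 and 415.6 in trained wildtype mice, against 52.5 and 59.5 in the untrained plakoglobin (+/-) and wildtype mice. Both untrained values lie below the floor, so no fold or log2 difference is given. The 2 highest values belong to males on arrays of high GAPDH ratio.

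Pkp4, an armadillo relative found in desmosomes and adherens junctions, was represented by 1452209_at. It read 5336.1, 6319.2, 7830.9 and 7958.0 in trained plakoglobin (+/-) mice and 6894.8, 9947.2, 6991.8 and 7095.9 in trained wildtype mice, against 5415.2 and 5913.7 in the untrained plakoglobin (+/-) and wildtype mice. All but 1 trained mouse, a male, lay above both untrained mice. The training difference, which contrasts females only, was 0.53 (SE 0.20, adjusted p = 0.434). Over the alternative settings it lay between 0.35 and 0.63. The other Pkp4 probe set, 1438677_at, gave 0.15 (SE 0.31) for training. By genotype it gave -0.52 (SE 0.25, adjusted p = 1), with 1829.7, 2402.3, 1993.7 and 2034.7 in trained plakoglobin (+/-) mice and 3986.9, 1825.7, 2965.8 and 3511.4 in trained wildtype mice. Here 3 wildtype mice lay above all trained plakoglobin (+/-) mice and replicate 2, of the highest GAPDH ratio, lay below them. The representing Pkp4 probe set had -0.17 (SE 0.17) by genotype, which turned to 0.03 once the 3 arrays of high GAPDH ratio were left out.

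The cadherins differed in sign. Dsg2, represented by 1439476_at, read 6347.3, 9332.0, 8091.9 and 6976.8 in trained plakoglobin (+/-) mice and 8648.5, 8652.6, 8649.0 and 11383.9 in trained wildtype mice. The untrained plakoglobin (+/-) mouse read 5530.7 and the untrained wildtype mouse 7844.4. The genotype difference was -0.28 (SE 0.19, adjusted p = 1) and the training difference 0.39 (SE 0.22, adjusted p = 0.707). All 4 tested Dsg2 probe sets were higher in trained mice, by 0.34 to 0.52, and 0 of them passed. By genotype they lay between -0.31 and 0.10, with 1449740_s_at the only one above 0. With the 3 arrays of high GAPDH ratio left out, all 4 were below 0, at -0.30 for the representing one, -0.09 at 1449740_s_at, -0.62 at 1425619_s_at (unadjusted p = 0.0291, adjusted p = 0.71) and -0.09 at 1460380_at.

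Dsc2, represented by 1426911_at, read 2001.2, 2123.2, 1988.7 and 1693.7 in trained plakoglobin (+/-) mice, against 1515.7, 1846.7, 1190.6 and 1558.7 in trained wildtype mice. The difference was 0.37 (SE 0.21), with a 95% interval from -0.11 to 0.84 (adjusted p = 1). The untrained mice stood the other way round, with 1823.7 in the plakoglobin (+/-) mouse and 2724.8 in the wildtype mouse, the highest of all 10 arrays. The genotype by training term of Dsc2 was 0.94 (SE 0.47), with a 95% interval from -0.11 to 2.0 (adjusted p = 1). The terms of Jup and Dsc2 thus had opposite signs, and both rest on the same 2 untrained mice.

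The second Dsc2 probe set, 1421156_a_at, read 716.1, 2972.3, 1924.7 and 1556.2 in trained plakoglobin (+/-) mice and 149.5, 1820.2, 696.1 and 1172.1 in trained wildtype mice. Its genotype difference was 1.21 (SE 0.63, adjusted p = 1). Both males on arrays of high GAPDH ratio, trained plakoglobin (+/-) replicate 1 and trained wildtype replicate 1, were the lowest of their groups at this probe set. Without the 3 arrays the difference was 1.22 (SE 0.37, unadjusted p = 0.00884, adjusted p = 0.709).

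Perp, a small membrane protein that p53 induces and that mouse epidermis needs for its desmosomes, had the lowest p of these genes for training. It read 10458.3, 7539.3, 9063.5 and 12252.0 in trained plakoglobin (+/-) mice and 7681.9, 12480.0, 7162.3 and 11152.9 in trained wildtype mice, against 5692.2 and 7221.4 in the untrained plakoglobin (+/-) and wildtype mice. Only wildtype replicate 3 among the trained mice read less than an untrained mouse. The training difference was 0.80 (SE 0.23), with a 95% interval from 0.30 to 1.30 (unadjusted p = 0.00478, adjusted p = 0.245). With a sex term this is the contrast of the 4 trained and the 2 untrained females, and the fit in females alone gave the same 0.80 (SE 0.19, adjusted p = 0.137). With the arrays of high GAPDH ratio left out, it was 0.76 (SE 0.19, adjusted p = 0.0804).

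Leaving out the untrained plakoglobin (+/-) mouse gave a training value of 0.60 for Perp, and leaving out the untrained wildtype mouse gave 0.99. Trained females had 9063.5 to 12480.0 and trained males 7162.3 to 10458.3, a sex difference of 0.46 (SE 0.19, adjusted p = 0.541). By genotype Perp gave 0.05 (SE 0.19), with a 95% interval from -0.37 to 0.47. The summed signal of the 9 mesothelium and epithelium markers was 5451.1 to 8263.4 in trained mice and 6290.3 to 7831.9 in untrained mice. That of the 4 keratinocyte markers was 1827.2 to 3439.3 in trained mice and 2252.7 to 2392.8 in untrained mice. In both lists the untrained sums lay within the range of the trained ones. The summed signal of 4 atrial markers was 20726 to 37330 in trained mice and 5735.7 to 6705.7 in untrained mice. Of these, Nppa, the atrial natriuretic peptide that ventricles can also make, had a training difference of 2.66 (adjusted p = 0.00112), Myl4 had 0.19 (adjusted p = 0.928), and Myl7 and Sln were too dim to be tested. The summed signal of 6 leukocyte markers was 22682 to 38500 in trained mice and 38084 to 38104 in untrained mice. The part of either in the training differences was not tested.

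Tmem43, a protein of the inner nuclear membrane, was the one gene of the 8 whose representing probe set separated the genotypes mouse by mouse. At 1426434_at trained plakoglobin (+/-) mice read 1725.7, 1967.2, 1976.7 and 2038.2, and trained wildtype mice read 1406.7, 1234.7, 1659.2 and 1613.2. The untrained pair had the same order, with 1803.7 in the plakoglobin (+/-) mouse and 1332.2 in the wildtype mouse. Over all tested probe sets 1.6% did not overlap between genotypes in the 8 trained mice, and 0.339% did not in all 10 mice (0.214% higher and 0.125% lower in plakoglobin (+/-) mice). This pattern was singled out after the values were seen, so it carries no test of its own. In the fit over trained mice the difference was 0.39 (SE 0.20), with a 95% interval from -0.06 to 0.84 (adjusted p = 1).

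The second Tmem43 probe set, 1439418_x_at, did not repeat the separation. It read 1073.1, 1538.2, 1355.6 and 1077.6 in trained plakoglobin (+/-) mice and 559.1, 173.5, 1220.1 and 933.1 in trained wildtype mice, and its order was turned in the untrained pair, at 667.6 in the plakoglobin (+/-) mouse and 1170.6 in the wildtype mouse. The 2 lowest trained wildtype values came from arrays of high GAPDH ratio, and without the 3 arrays the difference was 0.36 (SE 0.33), beside 1.11 (SE 0.54) with them. In array naming the x marks probes that may cross-hybridise.

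**Figure D3:**
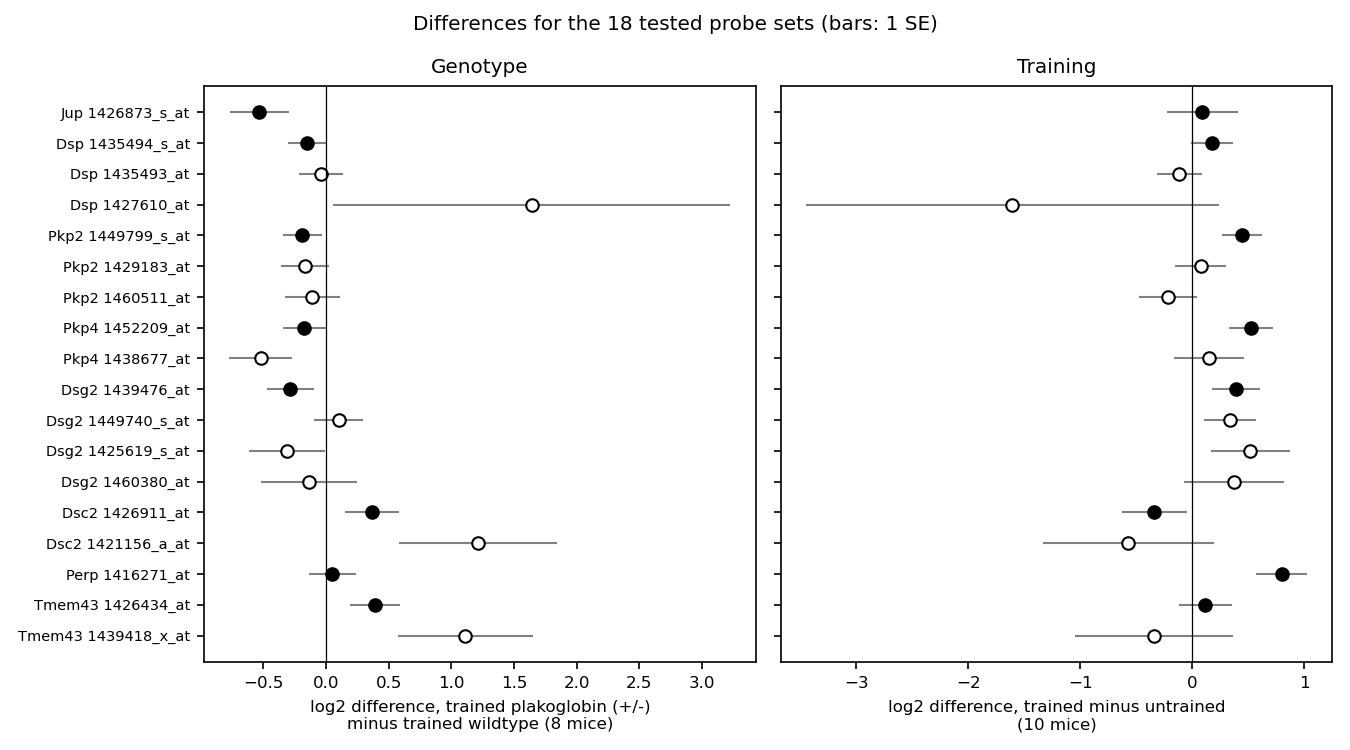
Log2 differences with 1 SE for the 18 tested probe sets, trained plakoglobin (+/-) minus trained wildtype on the left and trained minus untrained on the right; filled points represent a gene and open points are its further probe sets. Perp, Pkp4 and Pkp2 have the largest training differences among filled points (0.80, 0.53 and 0.44), and Dsp 1427610_at has the widest bars on both sides.

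The counts at a looser threshold are set here beside the rest of the array. At an unadjusted p under 0.05, 1 of 18 probe sets (Jup) stood out by genotype, where 2.01% of all probe sets did. By training 3 of 18 did, the representing probe sets of Perp, Pkp4 and Pkp2, where 8.68% of all probe sets did. By sex 3 of 18 did, 1 each of Pkp2, Dsg2 and Perp, where 8.82% did, and by the genotype by training term 0 of 18, where 3.2% did. When only arrays of lower GAPDH ratio were fitted (5 trained mice for genotype, 7 mice for training), both the members' counts and the background were higher. By genotype 4 of 18 then stood out (Jup, Pkp4 1438677_at, Dsg2 1425619_s_at and Dsc2 1421156_a_at), where 6.54% of all probe sets did. By training 7 of 18 did, the same 3 and all 4 of Dsg2, where 12.9% of all probe sets did. The median training difference of the 8 genes was 0.28, with 7 of 8 higher, beside 0.00 over 8365 tested genes. The median genotype difference was -0.16, with 5 of 8 lower, beside 0.01 over the same genes. The 9 cardiomyocyte markers had a median genotype difference of -0.12, with 7 of 9 lower. Their median training difference was -0.09, also with 7 of 9 lower.

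By sex, the representing Pkp4 probe set did not overlap between trained females (7095.9 to 9947.2) and trained males (5336.1 to 6991.8). The difference was 0.36 (SE 0.17, adjusted p = 0.579), and over all tested probe sets 5.89% did not overlap, 2.91% being higher and 2.98% lower in females. The further Pkp2 probe set 1429183_at had a sex difference of 0.57 (SE 0.19, adjusted p = 0.509), with 14668.1 to 24190.0 in females and 10469.3 to 15061.1 in males. Jup differed by sex by -0.04 (SE 0.24).

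Whether the genes varied together from mouse to mouse was asked by relating Jup to each of the other 7 across the 8 trained mice. Each gene entered by its representing probe set only. That of Dsg2, a cadherin whose tail plakoglobin binds, followed Jup, and the further Dsg2 probe sets were not tested in this way. Pearson's r of the log2 signals was 0.88 (exact permutation p = 0.00231, adjusted over 7 relations p = 0.0161), and Spearman's rho was 0.90 (exact permutation p = 0.00456, adjusted p = 0.0319). Without the 2 mice farthest from the median of Jup, trained plakoglobin (+/-) replicate 1 and trained wildtype replicate 4, r was 0.72 over 6 mice (exact permutation p = 0.0875), so that the relation then did not pass. With the means of genotype and sex removed r was 0.84 (permutation of residuals p = 0.0107, adjusted p = 0.0752). Residuals of a fit are not freely exchangeable, so this p is approximate. The split by GAPDH ratio leaves 5 and 3 trained mice, fewer than the 6 taken here as the least for a correlation, so no value is given within each.

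None of the other 6 relations with Jup passed. Dsp had an r of 0.59 and a rho of 0.67, Pkp2 0.19 and 0.02, and Pkp4 0.17 and 0.10. Those of Dsc2 were -0.54 and -0.45, of Perp -0.27 and -0.21, and of Tmem43 -0.33 and -0.43. Their exact permutation p values, adjusted over the 7 relations, lay between 0.392 and 0.694 for r and between 0.291 and 0.977 for rho. Over all 10 mice, and as a description only, the r of the representing Dsg2 probe set with Jup was 0.61, rank 247 of 12456 named probe sets. Pkp4 1438677_at (r = 0.63, rank 187) and the representing Dsp probe set (r = 0.62, rank 200) ranked above it. Other probe sets of the same genes ranked far lower. The representing Pkp4 probe set had an r of 0.18 (rank 4108), Dsp 1427610_at 0.21 (rank 3662) and Dsp 1435493_at -0.54 (rank 11899). The further Dsg2 probe sets had an r of 0.04, 0.37 and 0.45. The untrained plakoglobin (+/-) mouse, with the lowest Dsg2 signal of the 10, had a Jup signal near the middle. The probe sets most like Jup over the 10 mice were those of Lypd1 (r = 0.90), Cbx5 (0.88), Lrpap1 (0.86), Puf60 (0.84) and Mms19 (0.84).

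**Figure D4:**
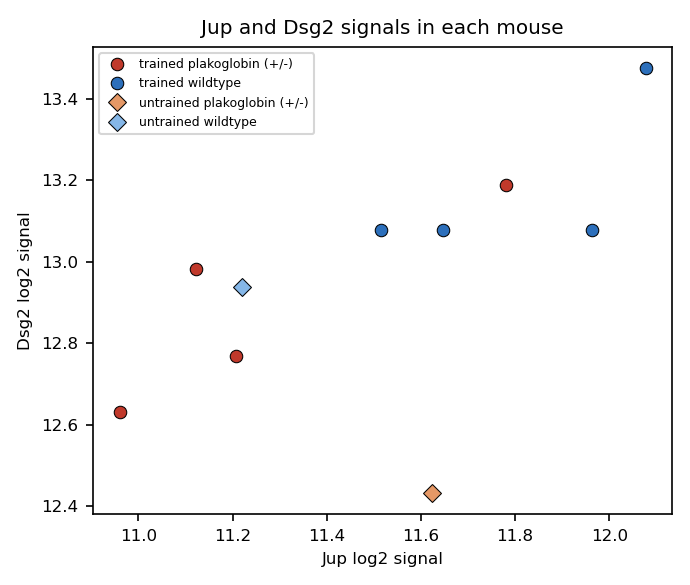
Log2 signal of the representing Dsg2 probe set against that of Jup in each of the 10 mice, by group. The 8 trained mice (circles) rise together with a Pearson's r of 0.88, and the untrained plakoglobin (+/-) mouse (lower diamond) lies apart from them.

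The 16 other genes of the junction that were tested gave 0 calls by limma in any of the 4 comparisons. At an unadjusted p under 0.05 they gave 2 by training (Cxadr and Ctnna1), 1 by sex (Cxadr) and 0 in the other comparisons. Over all tested probe sets the shares were 8.68% by training, 8.82% by sex, 2.01% by genotype and 3.2% by the genotype by training term. Of 12 further desmosome genes 7 were on the array under 1 symbol and 4 were tested, Ppl, Pkp3, Des and Dsc3. Periplakin (Ppl), a plakin that binds filaments, had the largest values, 0.48 (SE 0.26) by genotype and 0.63 (SE 0.33) by training, while desmin (Des), the filament that desmoplakin holds, had -0.04 (SE 0.18) and -0.22 (SE 0.21). Plakophilin-3 (Pkp3) gave 0.19 and -0.27, and the cadherin Dsc3 0.02 and 0.18. Of 14 area composita and adherens junction genes 12 were tested, with 8 higher and 4 lower in trained mice and a median of 0.18. Over all 8365 tested genes 4194 were higher and 4171 lower. Cxadr, an adhesion molecule of the disc, had 1.20 (SE 0.46, adjusted p = 0.466) and Ctnna1, alpha-catenin, 0.57 (SE 0.23, adjusted p = 0.499), while the catenin relatives Arvcf and Ctnnd1 had 0.60 and -0.42. By genotype 9 of the 12 were lower, with Nrap at 0.33, Cxadr at 0.30, Ctnnb1 (beta-catenin) at -0.27 and Vcl (vinculin) at -0.18. Over all 8365 tested genes 4086 were lower by genotype. The 6 other cardiomyopathy genes, which do not all belong to the junction, also gave 0 calls by limma. At an unadjusted p under 0.05 they gave 1 by training (Ryr2), 1 by sex (Tgfb3), 1 for the interaction of genotype with training (Flnc) and 0 by genotype. The shares over all tested probe sets given above apply here too. Tgfb3, a growth factor, had -0.78 (SE 0.56) by genotype and -1.12 (SE 0.74) by training, and Ryr2, the calcium release channel, -0.12 (SE 0.21) and 0.54 (SE 0.24).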

How the data were processed

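Per the submitters' processing notes, the authors made the deposited intensity values with MAS5 version 5.0, as linear signals of 22690 probe sets on 10 arrays. The mean left after trimming 2% of values at each end was 2501.3 to 2501.6 on every array, so the deposited signals are scaled to a common level. They carry no detection calls, and the number of arrays limits the precision. Values under 104, the 10th percentile of the table, were set to 104 before log2 was taken. The 64 control probe sets were set aside, the dimmest 40% of the rest by mean log2 signal were dropped, and 13576 were tested. Symbols came from the platform annotation; 20393 probe sets had 1 symbol, 691 several and 1606 none. limma 3.58.1 (lmFit, eBayes with intensity trend, two-sided, Benjamini-Hochberg) was run in R 4.3.3. Genotype and sex were fitted over the 8 trained mice, training over 10 mice beside both, and the interaction of genotype with training was added to that model. Permutation tests were exact, except those on residuals, which were approximate. Scripts were tested on simulated data. Described are all probe sets of the 8 genes and up to 4 genes of each junction list, those with the largest difference. These genes and lists were chosen with earlier results of these data known. Replicate numbers are names only. The alternatives were other normalizations, floors, filters, models and probe sets, and each mouse left out.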

Additional observations from a re-analysis of the deposited data

Results flagged for a closer look

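Among the 42 groups of 4 mice examined (21 probe sets in the 2 trained groups), 6 held a mouse whose gap to its nearest neighbour, divided by the range of the group, was above 0.829, the 95% limit for 4 values. Chance gives such a gap in about 1 of 20 groups. Low mice were trained plakoglobin (+/-) replicate 1 at Dsp 1427610_at, with 558.1 and a ratio of 0.837, and trained wildtype replicate 1 at Dsg2 1425619_s_at, with 1624.2 and 0.861. High mice were trained wildtype replicate 1 at the dim Pkp2 1420259_at (1178.6, ratio 0.851), trained wildtype replicate 2 at Pkp4 1452209_at (9947.2, ratio 0.934) and trained plakoglobin (+/-) replicate 1 at Dsg2 1449740_s_at (7286.4, ratio 0.861). These 5 values come from the 3 arrays of high GAPDH ratio. The sixth, trained wildtype replicate 4 at the representing Dsg2 probe set (11383.9, ratio 0.999), does not: the other 3 trained wildtype mice lay within 8648.5 to 8652.6. That array also had the highest Jup signal, 4322.0.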

How the results depend on the processing

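Over 616 alternatives for the 8 genes in 4 comparisons, 0 passed the threshold (lowest adjusted p 0.0804, Perp by training without the 3 arrays of high GAPDH ratio), and 49 turned in sign; the cause was not tested. By genotype Perp turned to -0.03 with all 10 mice and -0.015 without the 3 arrays, and spanned -0.0884 to 0.18 with 1 mouse left out; Pkp4 turned to 0.0254 without the 3 arrays. With 1 mouse left out the training differences spanned -0.38 to 0.56 for Jup and -0.81 to 0.14 for Dsc2. Sex differences spanned -0.17 to 0.16 for Jup, -0.0686 to 0.10 for Pkp2, -0.0205 to 0.22 for Dsg2, -0.0355 to 0.18 for Dsc2 and -0.057 to 0.11 for Tmem43. The genotype by training term spanned -0.16 to 0.0339 for Pkp4 and -0.15 to 0.0235 for Tmem43. Sex differences turned to -0.0076 for Pkp2 with cyclic loess and, without the 3 arrays, to -0.10 for Dsp, -0.0088 for Dsg2 and -0.0008 for Tmem43. Without them the genotype by training term of Pkp4 was 0.15.

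Further probe sets turned the sign by genotype for Dsp (1.64 at 1427610_at) and Dsg2 (0.10 at 1449740_s_at), and by training for Dsp (-0.11 and -1.61), Pkp2 (-0.22) and Tmem43 (-0.34). By sex they did so for Dsp (-0.0223), Pkp4 (-0.25), Dsg2 (-0.0933) and Tmem43 (-0.56), and in the genotype by training term for Dsp (0.12 and 1.52), Pkp2 (0.34), Dsg2 (-0.35 and -0.0691) and Tmem43 (1.92).

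Over all probe sets, training called 85, or 225 without the 3 arrays and 10 to 87 with 1 mouse left out (10 without the untrained plakoglobin (+/-) mouse, 34 without the untrained wildtype mouse, and 50 to 53 without trained plakoglobin (+/-) replicate 3 or 4 or trained wildtype replicate 4). Sex called 7, but 13 with quantile normalization, 15 with the higher floor, 2 with no filter, 11 with the stricter filter, 1 without trend, 15 with all 10 mice, 17 without the 3 arrays and 1 to 12 with 1 mouse left out (12 without trained plakoglobin (+/-) replicate 2, and 1 without replicate 3 or 4 of that group or replicate 1, 2 or 4 of the trained wildtype group). The genotype by training term called 0 (434 at an unadjusted p under 0.05), but 1 with quantile normalization, 66 with no filter, 1 without the 3 arrays and 0 to 1 with 1 trained mouse left out (1 without trained wildtype replicate 1); leaving out an untrained mouse removes a group and the term with it. Genotype called 0 under every alternative run (273 at an unadjusted p under 0.05). The Jup difference of means spanned -0.70 to -0.43 with 1 mouse left out. With genotype and sex means removed, the r of Jup with Pkp2 (-0.40), Pkp4 (-0.0865) and Tmem43 (0.60) turned in sign, and that with Dsg2, 0.84, lost its pass.

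No paired analysis was possible because the labels name no littermate pairs.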
